A study of Mus musculus with 6 samples.

Results

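The miR-200 family, miR-203 and miR-205 are microRNAs (miRNAs) best known from epithelial cells, and their levels were examined here in embryonic mouse cardiomyocytes (EMCMs). Members were taken by name: every miRNA in the processed data named miR-200, miR-141, miR-429, miR-203 or miR-205, with any letter, arm or asterisk. This gave 12 of 689 listed miRNAs, of which 7 carry a plain name (miR-200a, miR-200b, miR-200c, miR-141, miR-429, miR-203 and miR-205) and the others are marked with an asterisk, the older sign for the opposite, usually less abundant arm of the same hairpin. The cells came from hearts of wild-type Swiss Webster embryos at E16.5, as the labels name them, and were grown on flexible plates coated with collagen. There were 3 cultures stretched cyclically by 16% at 1 Hz for 24 hours and 3 static controls, and only RNA of high integrity went into the small RNA libraries. The study's methods give another mouse background, CD1, and more samples per group than the labels do. The value analysed here is a mean abundance, deposited once for each miRNA with no sample or group named. It does not tell stretched from static cultures or one culture from another, so no SD, no depth and no test can be given, and the effect of stretch on these miRNAs was not analysed here.

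A miRNA guides silencing complexes to messenger RNAs through its seed, bases 2 to 8 counted from the 5′ end, which pair with matching letters in the target's 3′ untranslated region (3′ UTR). The miR-200 family consists of 5 miRNAs made from 2 gene clusters and carrying 2 seeds that differ by a single base. In epithelial tissues the family is known for holding down Zeb1 and Zeb2, transcription factors that repress E-cadherin and drive the change from an epithelial to a mesenchymal state, and these factors in turn repress the miRNA genes. miR-203 is known from the differentiating layers of the skin, and miR-205 from basal cells of stratified and glandular epithelia. Heart muscle is not a tissue in which any of them is known as a leading miRNA.

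The mature sequences show which members can share targets, and are therefore given first. They are RefSeq entries on GRCm38.p6, all 12 members were matched, and the arm behind each older name was assigned by the usual reading of that name, which is the 3′ arm for all plain names except miR-205. Capitals mark the seed. The first 3 carry the seed AAUACUG and the next 2 the seed AACACUG, followed by miR-203 and miR-205, each with a seed of its own.
miR-200b: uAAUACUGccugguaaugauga
miR-200c: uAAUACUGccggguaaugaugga
miR-429: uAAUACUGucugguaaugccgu
miR-200a: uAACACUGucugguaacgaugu
miR-141: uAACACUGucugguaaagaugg
miR-203: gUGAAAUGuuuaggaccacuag
miR-205: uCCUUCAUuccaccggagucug

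The 2 seeds of the family are told apart by position 4 of the miRNA, U4C from miR-200b to miR-200a. Among the mouse mature miRNAs of the same RefSeq table, 3 have the seed AAUACUG and 2 have AACACUG, so no mouse miRNA of that table outside the family shares either. The seeds of miR-203 and miR-205 each occur in 1 mature miRNA. Over the first 22 positions, miR-200a and miR-141 differ at 2 positions (C17A and U22G), and miR-200b and miR-200c differ at 2 positions (U11G and A22G). miR-429 is less like its seed partners, with 4 differences from miR-200b (C9U, A19C, U20C and A22U) and 5 from miR-200c. Each seed thus has members in both clusters, and for miR-200a, miR-141, miR-200b and miR-200c the closest relative lies on the other chromosome rather than in the same cluster. None of the 12 members shared its value with another listed miRNA, whereas 30 of the 689 miRNAs did.

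The hairpins lie in 4 places of GRCm38. Mir200b (chr4:156055681-156055750), Mir200a (chr4:156054896-156054985) and Mir429 (chr4:156053905-156053987) are on the minus strand within 1846 bp. All of these lie in introns of Ttll10, a gene of the tubulin tyrosine ligase-like family, and of the noncoding Gm13648, except that Mir429 overlaps an exon of Gm13648. Mir200c (chr6:124718322-124718390) and Mir141 (chr6:124717914-124717985), also on the minus strand, fit within 477 bp in an intron of the noncoding Gm15884, and Mir141 overlaps an exon of the unclassified transcript Gm29008 as well. Mir203 (chr12:112130880-112130955, plus strand) lies outside other annotated genes, 3321 bp from the nearest coding gene, Aspg. Mir205 (chr1:193507463-193507530, minus strand) overlaps an exon of the long noncoding RNA 4631405K08Rik. The reads were aligned by the authors to a mouse genome whose build is not given in the sources used here, so these positions describe the annotation and not the alignment.

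The 7 plain-named members were all scarce, and they lay close together. Levels are given as the deposited log2 mean abundance and as the same value in parts per 1000000 miRNA tags (ppm), after scaling all listed miRNAs to that sum. How the mean was formed from the samples is not stated, so a ppm value may differ from the share of pooled tags. miR-429 was the most abundant at -16.27, or 12.7 ppm, and ranked 281 of 689. miR-205 followed at -16.61 (10.1 ppm, rank 294) and miR-200c at -16.90 (8.19 ppm, rank 307). Next came miR-200b at -17.45 (5.61 ppm, rank 326) and miR-141 at -17.54 (5.28 ppm, rank 329). miR-203 was at -17.85 (4.25 ppm, rank 344) and miR-200a was the lowest at -18.07 (3.66 ppm, rank 354). The highest and the lowest thus differed 3.48-fold, and all 7 fell within 74 consecutive ranks in the middle of the list. The median over the 664 miRNAs with a level was 5.16 ppm, which lies between miR-141 and miR-203. Within the family, the smallest step between neighbours in this order was 1.06-fold (miR-200b over miR-141), and the largest was 1.55-fold (miR-429 over miR-200c). Whether any step exceeds the spread between cultures cannot be said from a mean alone.

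**Figure D1:**
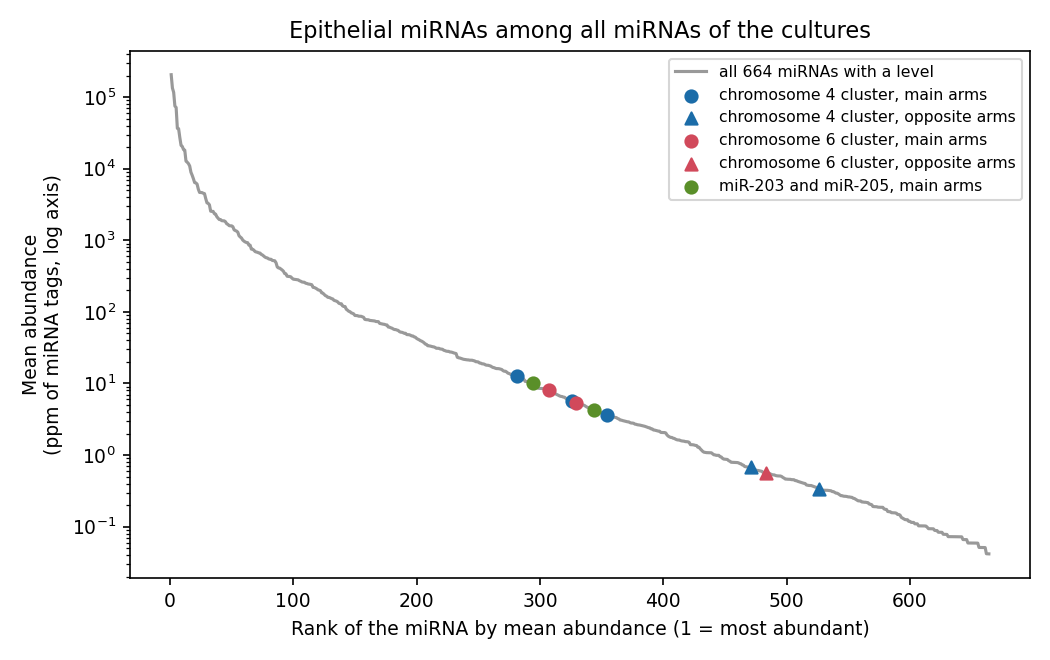
Mean abundance in ppm of miRNA tags (log axis) against rank for the 664 miRNAs with a level (grey line), with the members as points: circles for plain names, triangles for opposite arms, colour for the gene cluster. The 7 circles sit together between ranks 281 and 354, and the 3 triangles lie further down, between ranks 471 and 526.

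In the order of abundance, miR-429 stood between miR-1964-3p at 12.8 ppm and miR-674 at 12.5 ppm. miR-200a stood between miR-345-3p at 3.68 ppm and miR-26a-1*, the opposite arm of a miR-26a hairpin, at 3.61 ppm. Together the 12 members made up 0.00513% of the summed miRNA abundance. The most abundant miRNA of the cultures, miR-22, was at 205690 ppm, 16180-fold above miR-429.

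The 2 gene clusters had similar levels per miRNA. The summed level of miR-200b, miR-200a and miR-429 from chromosome 4 was 22.0 ppm, and that of miR-200c and miR-141 from chromosome 6 was 13.5 ppm, a log2 difference of 0.71. Per miRNA, the mean was 7.33 ppm on chromosome 4 and 6.74 on chromosome 6. The higher sum of the chromosome 4 cluster rested on miR-429: without miR-429 the log2 difference was -0.54, without miR-200c it was 2.06, without miR-141 it was 1.42, and with the mean of the log2 levels in place of the sum it was -0.042. Within the chromosome 4 cluster, miR-429, the last hairpin along the transcribed strand, was 2.27-fold above miR-200b and 3.48-fold above miR-200a. Hairpins of 1 cluster are thought to be cut from a common transcript. A ratio between different miRNAs is here a ratio of tags and need not be one of molecules.

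The hairpins of the highest and the lowest member of this cluster are shown as RNA in the direction of transcription, with both mature arms in capitals. The 3′ capitals hold the plain-named miRNA and the 5′ capitals the opposite arm. They show the stretch of transcript that miR-429 and miR-200a are each cut from.
Mir429: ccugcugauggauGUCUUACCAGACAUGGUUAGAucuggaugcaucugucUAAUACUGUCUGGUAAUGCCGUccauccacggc
Mir200a: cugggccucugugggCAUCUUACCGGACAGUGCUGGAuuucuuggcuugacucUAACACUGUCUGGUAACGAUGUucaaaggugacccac

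**Figure D2:**
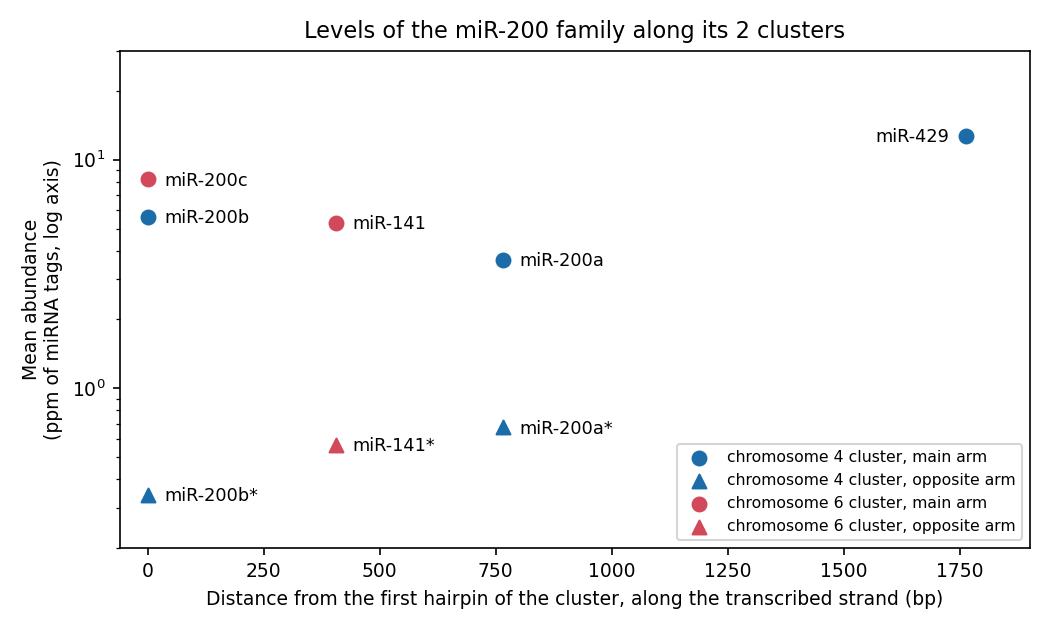
Mean abundance in ppm of miRNA tags (log axis) against the distance of each hairpin from the first hairpin of its cluster, in bp along the transcribed strand; blue is the chromosome 4 cluster, red the chromosome 6 cluster, circles are plain-named arms and triangles opposite arms. In both clusters the member with the seed AACACUG (miR-200a at 765 bp, miR-141 at 405 bp) is the lowest circle, and miR-429 at 1763 bp is the highest.

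In summed level, the 2 seeds lay further apart than the 2 clusters. The miRNAs with the seed AAUACUG summed to 26.5 ppm and those with AACACUG to 8.94 ppm, a log2 difference of 1.57. Per miRNA, the means were 8.84 and 4.47 ppm. The direction was the same inside each cluster: miR-200b was 1.53-fold above miR-200a on chromosome 4, and miR-200c was 1.55-fold above miR-141 on chromosome 6. Each of the 3 miRNAs with AAUACUG was above each of the 2 with AACACUG, although miR-200b exceeded miR-141 by only 0.087 on the log2 scale. Without miR-429 the log2 difference between the seeds was 0.63, without miR-200a it was 2.33 and without miR-141 it was 2.86.

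miR-205 and miR-203, which come from single hairpins, fell inside the range of the family. miR-205 lay between miR-429 and miR-200c, 1.23-fold above the latter, and miR-203 lay between miR-141 and miR-200a, 1.16-fold above the latter. miR-205 was 2.37-fold above miR-203.

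Of the opposite arms, 3 had a level, and these were lower still. Their sequences are shown because 2 of them share a seed that the plain-named arms do not have, with the seed again in capitals.
miR-200a*: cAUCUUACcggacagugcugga
miR-200b*: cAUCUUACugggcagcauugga
miR-141*: cAUCUUCCagugcaguguugga

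miR-200a* and miR-200b* share the seed AUCUUAC, and miR-141* differs from miR-200a* within it (A7C). miR-200a* was at -20.51 on the log2 scale (0.674 ppm), miR-141* at -20.76 (0.564 ppm) and miR-200b* at -21.49 (0.340 ppm). The order of the arms was therefore not that of their partners: miR-200a was the lowest of the plain-named members, and miR-200a* was the highest of these opposite arms. At these low levels, whether the order of the opposite arms exceeds the spread between cultures cannot be said from a mean alone. The plain-named arm exceeded its partner 5.43-fold for miR-200a (log2 difference 2.44) and 9.35-fold for miR-141 (3.23), and the log2 difference was largest for miR-200b, at 4.04. Across the 160 hairpins with both arms named in this way and given a level, the median log2 difference was 4.44 and the quartiles were 2.20 and 8.26, so these 3 hairpins lay inside the middle range and below the median. Among the 13 other hairpins whose plain-named arm was as abundant as the family (between miR-200a and miR-429), the difference ran from -2.58 to 5.63 with a median of 3.83. miR-429 and miR-200c had no opposite arm among the 689 listed miRNAs.

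**Figure D3:**
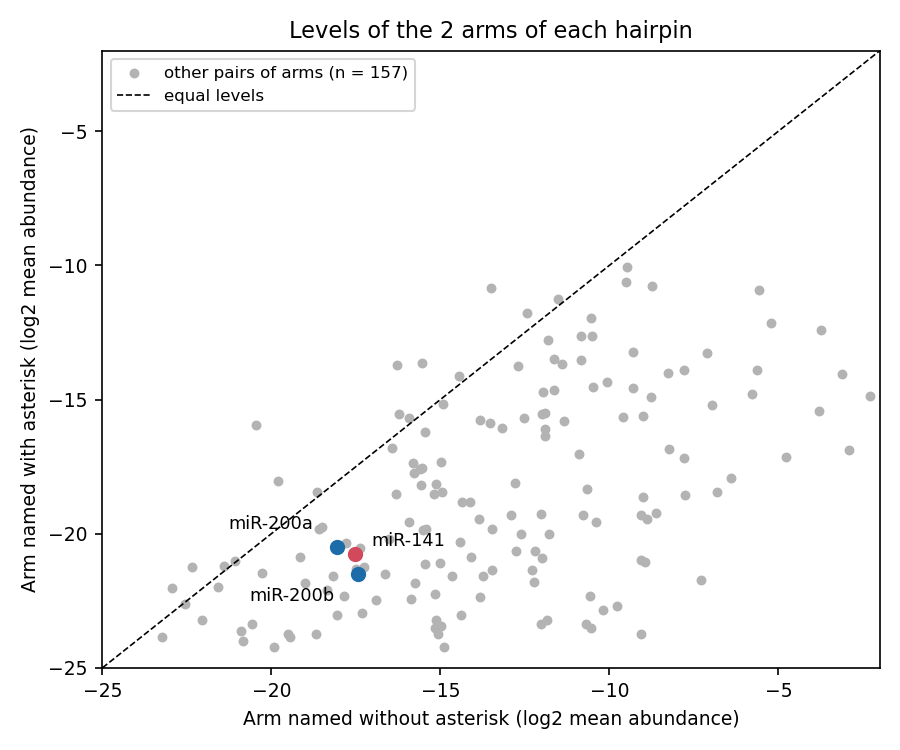
Log2 mean abundance of the arm named with an asterisk against that of the arm named without one, for the 160 hairpins with both levels; the dashed line marks equal levels. miR-200a and miR-200b (blue) and miR-141 (red) lie below the line, at differences of 2.44, 4.04 and 3.23.

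For miR-203* and miR-205* no level can be given. Their deposited values were -35.96 and -36.05, far under the lowest ordinary value of -24.52 (0.0417 ppm). In all, 25 miRNAs had such values, between -36.76 and -35.64, and 664 had ordinary ones. No other value lay between these ranges, and values this low were taken here as placeholders and not as measured abundances.

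The members were set beside miRNAs known from other cell types to place their level in the culture. Of 14 listed heart muscle miRNAs, named miR-1, miR-133, miR-208 or miR-499, 13 had a level, 6 of them above miR-429 and 5 below miR-200a. In the whole list, 664 of 689 had a level. Of the other miRNAs with a level, 57.8% were below miR-429 and 46.8% below miR-200a. Counted over both arms, the share of heart muscle miRNAs above miR-429 was thus close to that of the whole list. The 5 below miR-200a carry an asterisk or belong to miR-1b, whereas the 6 above miR-429 do neither and were at 119 ppm or more. The most abundant heart muscle miRNA was miR-208b, encoded within a myosin heavy chain gene, at 11788 ppm. This was 927-fold above miR-429. All 6 miRNAs of fibroblasts and mesenchyme were above miR-429, led by miR-199a-5p at 2535 ppm. In that count miR-199a-3p and miR-199b, which have identical values, stand separately. The 2 endothelial miRNAs, both arms of miR-126, were above miR-429 as well, miR-126-5p at 4663 ppm and miR-126-3p at 130 ppm. Of the 4 smooth muscle miRNAs, 3 were above miR-429. Among them, miR-143 was at 133906 ppm, second only to miR-22, and miR-145 was at 697 ppm. The epithelial members thus stood far below the leading miRNAs of muscle, mesenchyme and vessels.

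Some other miRNAs known from epithelia were far above the members. Among the 14 named miR-182, miR-183, miR-96, miR-192, miR-194, miR-215 or miR-375, 13 had a level, of which 6 were above miR-429 and 7 were below miR-200a. Of the other miRNAs with a level in the whole list, 57.8% were below miR-429 and 46.8% below miR-200a, so these counts were near those of the list. They mix the arms, however. The 6 above miR-429 all carry plain names, and those below miR-200a carry an asterisk except miR-375. The most abundant was miR-192, known from gut, liver and kidney, at 1876 ppm, 148-fold above miR-429. The sum of this list was 85.1-fold that of the 12 members. miR-182 was at 1669 and miR-183 at 667 ppm, both from a cluster known in sensory and other epithelia, while miR-375, known from endocrine and mucosal cells, was at 3.24 ppm and so under miR-200a.

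Blood and immune cell miRNAs lay nearer to the members in level. Of 10 listed miRNAs named miR-142, miR-223, miR-150, miR-155, miR-144 or miR-451, 2 were above miR-429 and 7 were below miR-200a. In the whole list, 57.8% of the other miRNAs with a level were below miR-429 and 46.8% below miR-200a. The most abundant was miR-142-5p at 75.3 ppm, while miR-142-3p, the other arm of miR-142, was at 1.77 ppm and so under miR-200a. miR-223, known from myeloid cells, was at 4.22 ppm beside miR-203 at 4.25. The red cell miRNA miR-451 was at 0.873 ppm. The neuronal miR-9 was at 18.1 ppm and its opposite arm at 0.267 (miR-124 was not among the listed miRNAs), and the liver miRNA miR-122 was at 0.603 ppm. In RNA from whole cultures, few cells with much of a miRNA and many cells with little of it cannot be told apart, and which cells held the members was not tested.

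**Figure D4:**
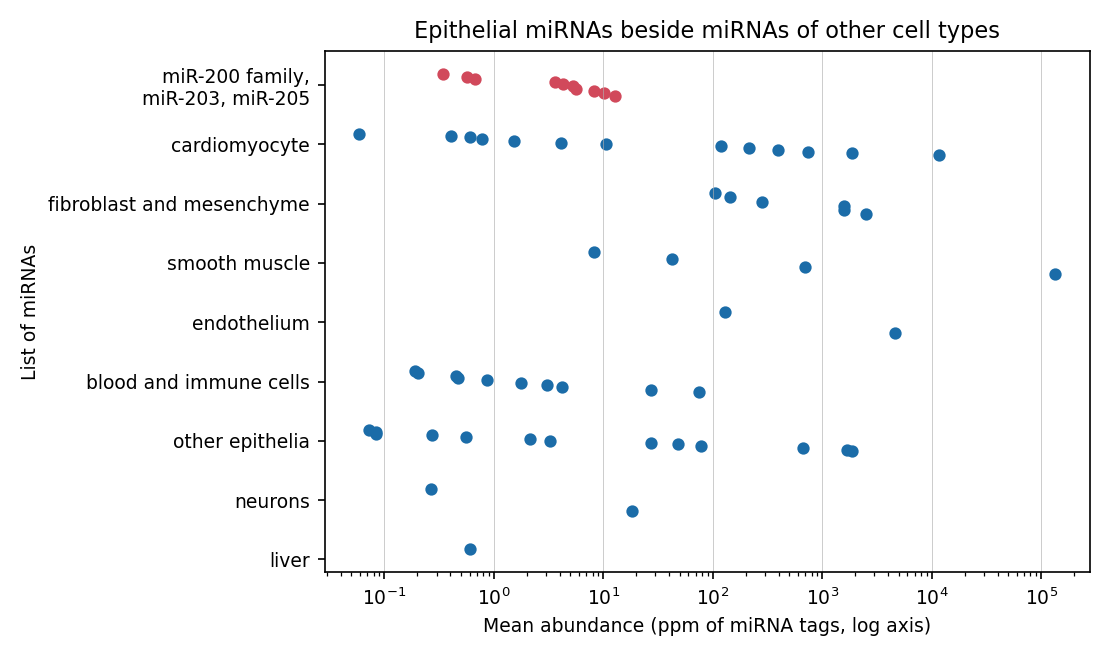
Mean abundance in ppm of miRNA tags (log axis) of each listed miRNA with a level, by list; the members are in red and the lists of other cell types in blue. The members span 0.340 to 12.7 ppm, and the leading miRNA of each other list except liver lies above every member.

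The family's best-known target in epithelia offers a view of what its seeds pair with, although no messenger RNA was measured here. The longest annotated 3′ UTR of Zeb2 (GENCODE, GRCm38) has 4941 nt. On the sense strand it holds CAGTATT, the match to the seed AAUACUG, 5 times, and CAGTGTT, the match to AACACUG, 4 times, and these motifs cannot overlap each other. Of the longest 3′ UTRs of 20999 coding genes, 13.3% hold CAGTATT and 17.2% hold CAGTGTT. Among the 883 whose length is within a factor of 1.2 of that of Zeb2, 38.2% and 51.5% do. These shares count any match in a 3′ UTR, so they do not say how usual 5 or 4 matches are. The match to the seed of miR-203, CATTTCA, is in 16.1% of all these 3′ UTRs and in 53.3% of those of similar length. The match to the seed of miR-205, ATGAAGG, is in 11.1% of all and in 34.2% of those of similar length. Each occurs 0 times in that of Zeb2. One site for each seed of the family is shown on the sense strand of the transcript with the match in capitals; Zeb2 is on the minus strand. A match of letters is a description and not a measured site.
Zeb2, seed AAUACUG (chr2:44988166-44988188): ccatacatCAGTATTttattatt
Zeb2, seed AACACUG (chr2:44988350-44988372): attttgtaCAGTGTTaaggccta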

How the data were processed

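Small RNA of 3 stretched and 3 static EMCM cultures was sequenced by the authors, who removed poor reads and adaptors, kept tags within a short length range, aligned these to the mouse genome (Bowtie2), counted hits under each gene ID and ran edgeR; the submitters' processing notes also name DESeq. Versions and genome build are not given in the sources used here. The log2 mean abundance was deposited by the authors without a stated unit and was read as a fraction of miRNA tags: raised as powers of 2, the values of all 689 miRNAs add up to 0.995. The other 4 columns hold the authors' comparison of the groups (fold changes, P values and FDR) and were not used. No counts per sample were analysed, so depth and precision are unknown and the planned test of stretch against static was not run.

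Levels in ppm are the values raised as powers of 2, scaled to sum to 1000000; values under -30 were taken as no level. How the authors normalized libraries and assigned tags of similar miRNAs could change each level. The arithmetic of sums and differences was checked on simulated data with known shares. That check does not bear on whether the deposited value is a fraction of tags. Sequences came from RefSeq and annotation from GENCODE M21, both on GRCm38. Named are all members, the neighbours in abundance of the highest and lowest plain-named member, and the top miRNA of each cell type list. Added after their values were seen were miR-22, miR-182, miR-183, miR-375, miR-223, miR-451, miR-126-3p, miR-145, miR-142-3p, miR-1b and the opposite arm of miR-9. The split of the heart muscle and epithelial lists by asterisk was also made after the values were seen. The members and lists were chosen with earlier results of these data known. Alternatives were the arms counted, means of log2 levels, leaving out each miRNA, other denominators and the treatment of values under -30. Python 3.11.15, numpy 2.4.6, pandas 2.3.3 and matplotlib 3.10.9 were used.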

Additional observations from a re-analysis of the deposited data

How the results depend on the processing

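Of 25 recalculations, 16 stayed within a factor of 1.5 of the reported value with the same direction, 7 moved further and 2 reversed. For log2 differences the factor was applied to the ratio itself, so a cluster difference of 0.28 without miR-200b still counted as unmoved. Those that moved or reversed were all comparisons of clusters, seeds or arms. The combined share of the members stayed (0.00498% to 0.00646%), as did each plain-named member's place among all miRNAs. These places could move only little, as the 25 miRNAs left out of 689 lie below every plain-named member. The log2 difference between the chromosome 4 and chromosome 6 clusters, 0.71, turned to -0.042 with the mean of the log2 levels (the linear mean per miRNA, 7.33 against 6.74 ppm, kept the direction) and to -0.54 without miR-429; it was 2.06 without miR-200c and 1.42 without miR-141. The log2 difference between the seeds, 1.57, was 0.93 with the mean of the log2 levels and 0.63 without miR-429. It was 2.33 without miR-200a and 2.86 without miR-141. Leaving out a miRNA or averaging could not reverse it, because each miRNA with AAUACUG was above each with AACACUG. With both arms of each hairpin, which that order does not fix, the difference was 1.40. The median log2 difference of the plain-named over the opposite arm in the family, 3.23, was 4.04 with miR-203* and miR-205* kept at their deposited values.

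No paired analysis was possible because the abundance column holds 1 mean per miRNA and no value per sample. The alternatives planned for counts (DESeq2, no filter, a replicate block and leaving out single replicates) had no counts to start from and were not run. The depth is unknown, so the precision of the low levels is too.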
